A study of Mus musculus with 4 samples.

Results

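Sumo2 was 1 of 48 genes in a deposited table that sets HT22 cells given a miR-712-3p mimic against control cells. It is described here because it had the highest mean level of them. HT22 is an immortalised neuronal line from mouse hippocampus, labelled wild type, and the study used it to ask how raised miR-712-3p alters neuronal transcripts. The mimic group (n = 2 libraries) was given a synthetic form of the microRNA, which was mixed with the reagent 15 min beforehand and stayed on the cultures over 24 h, while the control group (n = 2) is described as having had a change of medium alone, with no reagent and no control RNA mentioned. The treatment label of mimic replicate 2 reads miR-712-4p and that of mimic replicate 1 miR-712-3p, and the deposited columns call the control NC, so the agent in each group is known only as far as these labels go. RNA was taken 24 h after a further change of medium in both groups. An effect of transfection cannot be told apart from an effect of the mimic. Polyadenylated RNA was sequenced. The library totals behind the deposited levels, inferred from those levels, were 29873090 to 39292645 reads or read pairs. None of 12 neuronal marker genes, nor any marker of astrocytes, microglia or oligodendrocytes, was among the 48 genes, so the labelled cell type could not be checked. Independent repeats are stated for the study's experiments as a whole, and whether these libraries are separate cultures is not given.

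Sumo2 encodes a small ubiquitin-like modifier. SUMO proteins are made as precursors, trimmed by SENP proteases to end in a pair of glycines, and then joined to lysines of other proteins through a chain of enzymes that begins with Sae1-Uba2 and ends with ligases such as the Pias proteins. Sumo2 and Sumo3 differ little as mature proteins, can form chains on their targets, and are known for being conjugated to many proteins when cells meet heat or other protein-damaging stress. The values below are levels of the Sumo2 transcript and say nothing of SUMO2 protein or of conjugation.

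The gene (ENSMUSG00000020738) lies on the minus strand of GRCm38 chromosome 11, from 115523102 to 115536276, with no other annotated gene over its span. The nearest neighbours are Jpt1 at 8714 bases and Nup85 at 28157 bases. GENCODE M21 gives it 7 transcripts, of which 4 are protein-coding, 1 is marked for nonsense-mediated decay and 2 retain an intron. Only 1 of them, of 1051 bases in 4 exons, carries the full reading frame of 95 codons. This frame runs from base 159 to base 446 of the transcript, and 605 bases of 3′ UTR follow it, all in the last exon. It is shown in full because the copies described next match this stretch of the transcript, with the start codon, the codons of the glycine pair (codon 92 is the first) and the stop codon in capitals.

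Sumo2 coding sequence: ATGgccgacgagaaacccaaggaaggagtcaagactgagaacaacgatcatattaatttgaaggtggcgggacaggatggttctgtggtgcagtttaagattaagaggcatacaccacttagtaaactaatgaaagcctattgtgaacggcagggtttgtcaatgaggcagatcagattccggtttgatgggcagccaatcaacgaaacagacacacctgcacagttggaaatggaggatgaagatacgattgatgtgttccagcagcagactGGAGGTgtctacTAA

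Sumo2 is a gene with many copies, which bears on how its reads can be assigned. Of all annotated mouse transcripts, those of 11 other genes matched the Sumo2 transcript over at least 100 bases at 95% identity or more. All 11 were pseudogenes, 10 of them processed and 1 (Gm12755) unprocessed, and 9 lay on chromosomes other than 11. Gm10241 on chromosome 16 was identical to Sumo2 over 286 bases, and Smt3h2-ps4 on chromosome 1 differed at 1 of 288 bases. The matches together covered all 288 bases of the reading frame and 39 bases of the 3′ UTR, as the map of matches shows. None of the 27 genes with any match to Sumo2 was among the 48 listed genes. The longest match of all fell below 95% identity and was to a protein-coding gene, Samd8. It ran in reverse orientation over 784 bases at 89.9% identity, from base 139 to base 920 of the Sumo2 transcript. A stretch of 60 bases of the reading frame, coding bases 49 to 108, is given below for Sumo2, for the 5 copies of highest identity that match over at least 285 bases and for Sumo3, with bases unlike Sumo2 in capitals.

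Sumo2: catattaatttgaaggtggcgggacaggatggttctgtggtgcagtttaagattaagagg
Gm10241: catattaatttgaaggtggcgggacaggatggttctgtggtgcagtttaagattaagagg
Smt3h2-ps4: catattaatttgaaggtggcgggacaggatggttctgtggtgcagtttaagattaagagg
Gm13690: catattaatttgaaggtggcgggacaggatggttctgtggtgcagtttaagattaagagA
Gm12335: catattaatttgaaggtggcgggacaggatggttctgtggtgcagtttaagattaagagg
Gm13430: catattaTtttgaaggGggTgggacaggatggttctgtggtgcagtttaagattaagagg
Sumo3: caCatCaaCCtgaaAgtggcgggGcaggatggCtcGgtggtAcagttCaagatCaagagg

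Over these 60 bases 3 of the copies had the same letters as Sumo2, while Sumo3, the gene of the nearest paralogous protein, differed at 11 positions. Its best match to Sumo2 had 79.6% identity. Every stretch of 100 bases within the reading frame of Sumo2 occurred letter for letter in the transcript of another gene (189 of 189), against 0 of 506 such stretches in its 3′ UTR. Over the whole transcript, 19.9% of the stretches of 100 bases, 30.2% of those of 50 bases and 15.4% of those of 150 bases were found elsewhere. In the 3′ UTR, 37 of 556 stretches of 50 bases (6.7%) were found elsewhere. The search covered annotated transcripts only, so it would miss a copy that runs on in the genome past its annotated end. The 3′ UTR is therefore not shown to be free of copies. The precursor of miR-684 annotated as Mir684-1 matches without a difference 85 bases near the 3′ end of Sumo2 (937 to 1021), and it lies 778 bases from the start of the copy in Gm13690, which is also their spacing in the Sumo2 transcript. How reads that fit both Sumo2 and a copy were counted is not given in the sources used here, so the counts of Sumo2 are uncertain to that extent, and their part in the values below was not tested.

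**Figure D1:**
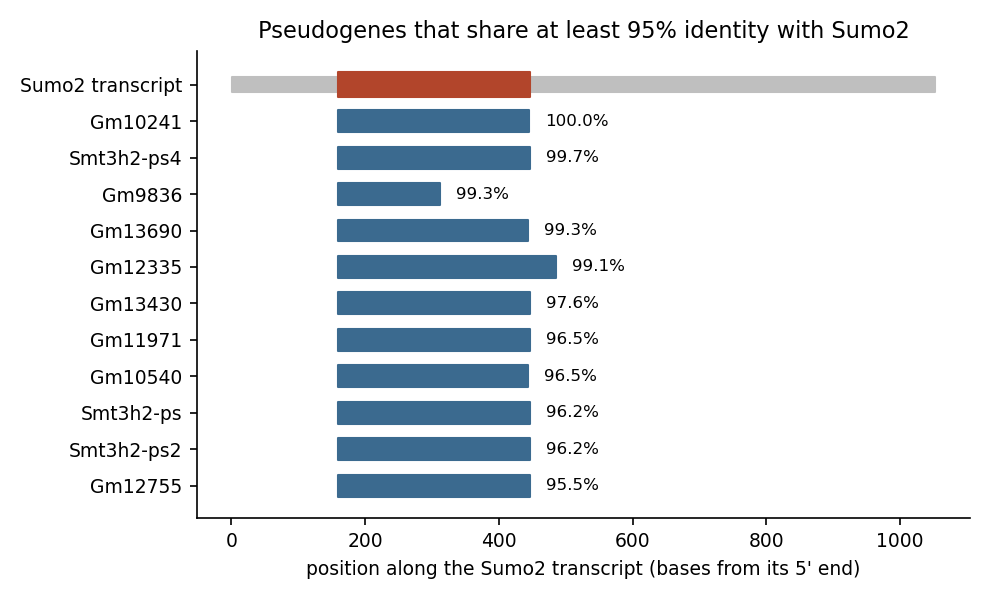
Matches of annotated pseudogenes to the Sumo2 transcript, with position in bases from the 5′ end on the horizontal axis, the transcript in grey with its reading frame in red and 1 blue bar per pseudogene, labelled with its percent identity. All 11 matches start at base 159, the first base of the reading frame, and none reaches beyond base 485.

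Mimic replicates 1 and 2 had 56.3 and 20.8 FPKM of Sumo2, and control replicates 1 and 2 had 13.2 and 10.4 FPKM. FPKM, computed by the authors, is the read count scaled to the length of the gene and to the total of the library. Mimic replicate 1 was far above the other 3 libraries, mimic replicate 2 was next, and the groups did not overlap. These levels rest on 3042 and 1419 reads in the mimic libraries and on 803 and 540 reads in the control libraries. The exact 95% intervals of these counts were 54.3 to 58.3 and 19.7 to 21.9 FPKM in the mimic libraries, against 12.3 to 14.1 and 9.55 to 11.3 FPKM in the control libraries. The intervals of the 4 libraries did not overlap, but reads copied by PCR are not separate molecules, so that these intervals show counting error alone.

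**Figure D2:**
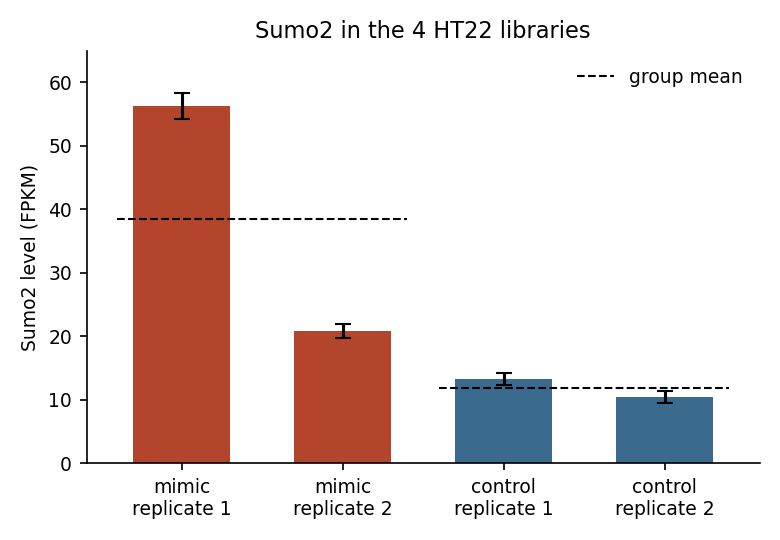
Sumo2 level in FPKM in each library, mimic in red and control in blue, with exact 95% counting intervals as error bars and group means as dashed lines. The bar of mimic replicate 1 reaches 56.3 FPKM, and the other 3 lie between 10.4 and 20.8 FPKM.

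The group means were 38.5 ± 25.1 FPKM with the mimic and 11.8 ± 1.97 FPKM in the control (SD, n = 2 each), a ratio of 3.26. The size of this ratio rested on mimic replicate 1. Without that library the ratio was 1.76, and without mimic replicate 2 it was 4.77. Set against each control library in turn, mimic replicate 1 was 4.26 and 5.40 times as high, whereas mimic replicate 2 was 1.58 and 2.00 times as high. The difference of the means, 26.7 FPKM, was close to the SD of the mimic group. The table had been selected by the authors on this contrast, and Sumo2 was chosen for its level, so no test of the difference is given. With 2 libraries against 2, a two-sided exact permutation test could not give a p below 0.333. Both mimic libraries were above both control libraries for 26 of the 48 listed genes, or 54.2%, Sumo2 among them, but the same contrast chose these genes. Whether more Sumo2 RNA per cell or a different mixture of cells gave these levels cannot be told apart in bulk samples.

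The listed genes were otherwise nearly all at low levels, and Sumo2 ranked first of the 48 in each of the 4 libraries. Its mean over all libraries was 25.2 FPKM. This was 6.08 times the next highest mean, 4.14 FPKM for the small nuclear RNA 7SK, a regulator of transcription elongation. As the libraries were made from polyadenylated RNA, neither the FPKM of 7SK nor ratios to it need follow its abundance in the cells. The median of the other 47 genes was 0.240 FPKM. Sumo2 was the only listed gene above 10 FPKM in any library and the only one with at least 100 reads in every library. Its 5804 reads made up 52.3% of all 11096 reads of the table, and Gm6627, second by reads, had 819. Within a library, the share of Sumo2 in the reads of the listed genes was 68.6% and 45.5% in the mimic libraries, and 35.6% and 41.9% in the control libraries. The lead over the second gene of a library also varied, at 9.21 and 3.81 times (7SK) with the mimic, against 2.37 times (Gm6627) and 2.85 times (Ppp1r2-ps4) in the control. These places hold within a table that the authors had selected, and do not place Sumo2 among all genes of HT22 cells.

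Below Sumo2 and 7SK, the highest mean FPKM belonged to Ppp1r2-ps4 and Gm6627, both pseudogenes, to the beta globin gene Hbb-bs and to the pseudogene Gm2606. 7SK had 6.11 and 5.46 FPKM with the mimic, against 2.76 and 2.22 FPKM in the control. Ppp1r2-ps4 had 1.88 and 1.89 FPKM with the mimic, against 4.24 and 3.65 FPKM in the control. Gm6627 had 1.21 and 0.864 FPKM with the mimic, against 5.56 and 2.57 FPKM in the control. Unlike Sumo2, Ppp1r2-ps4 and Gm6627 were lower in both mimic libraries than in both control libraries. Hbb-bs had 3.89 and 3.68 FPKM with the mimic, against 1.23 and 0.785 FPKM in the control. In 7SK, Ppp1r2-ps4 and Hbb-bs the mimic replicates lay close together, as the plot of the highest genes shows. Their SDs were 7.96%, 0.490% and 3.91% of their means, below the 12.2%, 15.4% and 9.90% that counting alone gives.

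**Figure D3:**
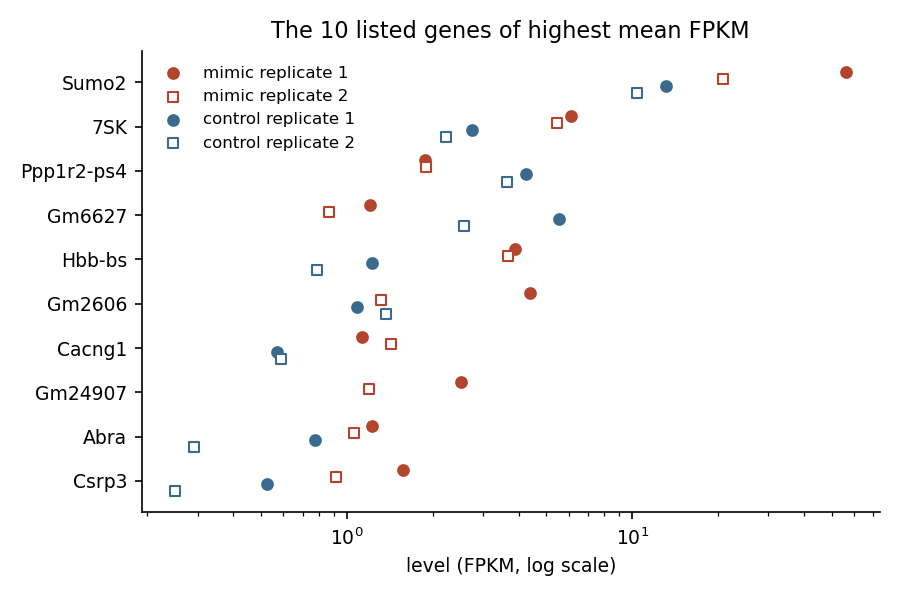
Level in FPKM on a log axis of the 10 listed genes with the highest mean FPKM, with mimic libraries in red and control libraries in blue, and replicate 1 as filled circles and replicate 2 as open squares. A library at 0 is not drawn, which concerns both control libraries of Gm24907. All 4 Sumo2 points lie above 10 FPKM, and no other gene has a point there.

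The FPKM of Sumo2 also depends on the length used. The authors' values fit a length of 1736 bases, the union of all annotated exons, which is 685 bases longer than the transcript with the full reading frame since it takes in retained introns and the exons of other transcripts. By the length of that transcript, the same reads give 92.9 and 34.4 FPKM with the mimic, against 21.8 and 17.2 FPKM in the control. Each value is 1.65 times as high, and the ratio between the groups is the same on either length.

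The replicates of Sumo2 differed within both groups, and more so within the mimic group. The labels of the mimic replicates name different agents, miR-712-3p and miR-712-4p, and whether this bears on their difference was not tested. Mimic replicate 1 was 2.70 times as high as mimic replicate 2 (95% counting interval 2.54 to 2.88), and control replicate 1 was 1.27 times as high as control replicate 2 (1.13 to 1.42). The SD of the 2 mimic libraries was 65.1% of their mean, where counting alone gives 2.12%, and that of the control libraries was 16.7%, where counting alone gives 3.86%. The counting values are lower limits on the spread between libraries, as they leave out PCR copies and any difference between samples.

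Among the 26 other genes with at least 20 reads in the mimic group and a read in both libraries, the median absolute log2 ratio between the mimic replicates was 0.31, against 1.44 for Sumo2. There were 5 genes with a larger ratio. Gm4631, Alms1-ps2 and Gm7551 were higher in mimic replicate 2, with 3 and 279, 4 and 38, and 7 and 45 reads in mimic replicates 1 and 2. Pparg and Gm2606 were, like Sumo2, higher in mimic replicate 1, with 16 and 6 reads and with 137 and 52 reads. Over the 26 genes, 15 were higher in mimic replicate 1 and 11 in mimic replicate 2, and in the control group 18 of 23 genes were higher in replicate 1 and 5 in replicate 2. The other 11 genes with at least 100 mimic reads had an SD of 3.91% to 138% of their mean, with a median of 23.7%. Of 23 other genes with at least 20 control reads, 16 had a larger ratio between the control replicates than the 0.34 (log2) of Sumo2. The median of the 23 genes was 0.64. These genes had at most 648 control reads (Gm6627), against 1343 for Sumo2, so counting alone spreads their ratios more. The other 4 genes with at least 100 control reads had an SD of 10.5% to 64.0% of their mean. Their median was 48.3%, against 16.7% for Sumo2.

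**Figure D4:**
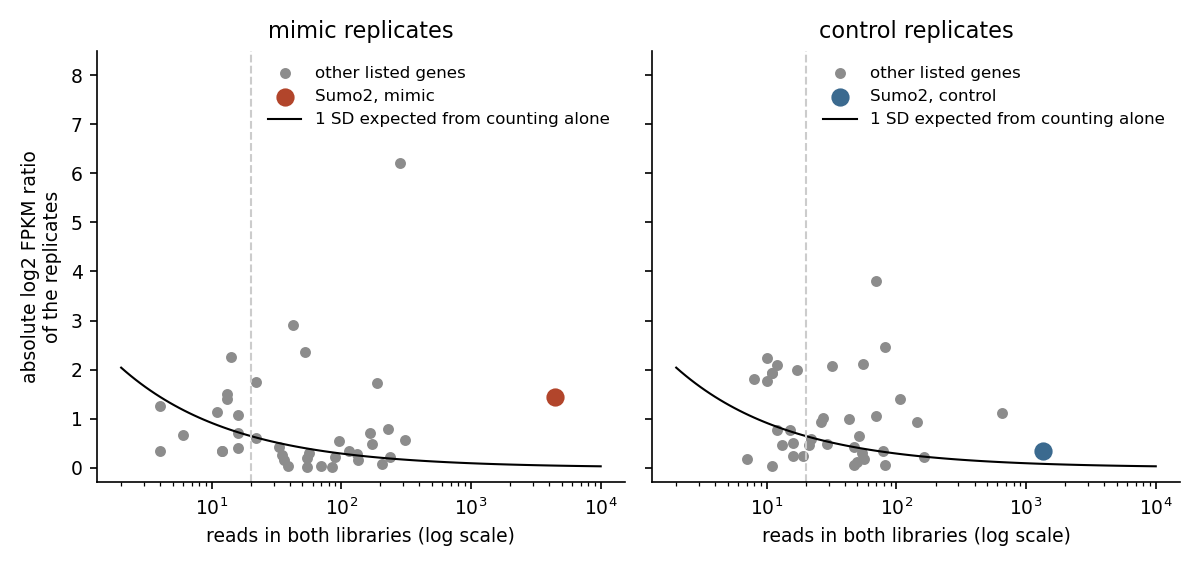
Absolute log2 ratio of FPKM between replicates 1 and 2, against the reads in both libraries on a log axis, for mimic replicates on the left and control replicates on the right; genes with 0 reads in a library are left out. The black line is 1 SD of the ratio from counting alone, the dashed line marks 20 reads, and Sumo2 lies at 1.44 in the mimic group and 0.34 in the control group, above the line in both.

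Sumo2 fell in the order mimic replicate 1, mimic replicate 2, control replicate 1, control replicate 2. Of the 36 other genes with at least 20 reads in all, 12 had the same order. Of the genes named elsewhere in the text, these were 7SK, Hbb-bs, Csrp3, Peg3, Trim63 and Pparg. Genes of this order lie within the 25 other listed genes, at any number of reads, that were higher in both mimic libraries. The authors had selected the table on that contrast, so only the order within each group was free, and the shared order carries no test. In these 12 genes mimic replicate 1 was between 1.01 times (Hook1) and 3.36 times (Pparg) as high as mimic replicate 2, and only Pparg exceeded the 2.70 of Sumo2. Hook1 is named here after its values were seen.

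The library profile of Sumo2, meaning the share of its summed FPKM found in each library, put 55.9% in mimic replicate 1 and 20.7% in mimic replicate 2, next to 13.1% in control replicate 1 and 10.3% in control replicate 2. The 5 genes with the most similar profiles were Gm2606, Csrp3, Peg3, Trim63 and Pparg, at summed absolute differences of 13.2, 20.6, 24.8, 30.2 and 31.1 percentage points over the 4 libraries. Gm2606 (chromosome 15) is a processed pseudogene whose 1002 bases match Gapdh, a glycolytic enzyme gene, at 99.9% identity, so reads of Gapdh and of Gm2606 are nearly alike in sequence and the values of Gm2606 are uncertain. It had 4.39 and 1.32 FPKM with the mimic, against 1.08 and 1.37 FPKM in the control. Only mimic replicate 1 of Gm2606 stood apart, and mimic replicate 2 lay within the control libraries. Csrp3, a LIM-domain protein of striated muscle, had 1.57 and 0.915 FPKM with the mimic, against 0.523 and 0.251 FPKM in the control. Peg3, an imprinted zinc finger gene, had 0.120 and 0.0822 FPKM with the mimic, against 0.0377 and 0.0197 FPKM in the control. Pparg, a nuclear receptor of fat cell formation, had few reads, 16 and 6 in the mimic libraries and 2 and 0 in the control libraries. These genes were picked by their likeness over 4 libraries, which carries no test.

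**Figure D5:**
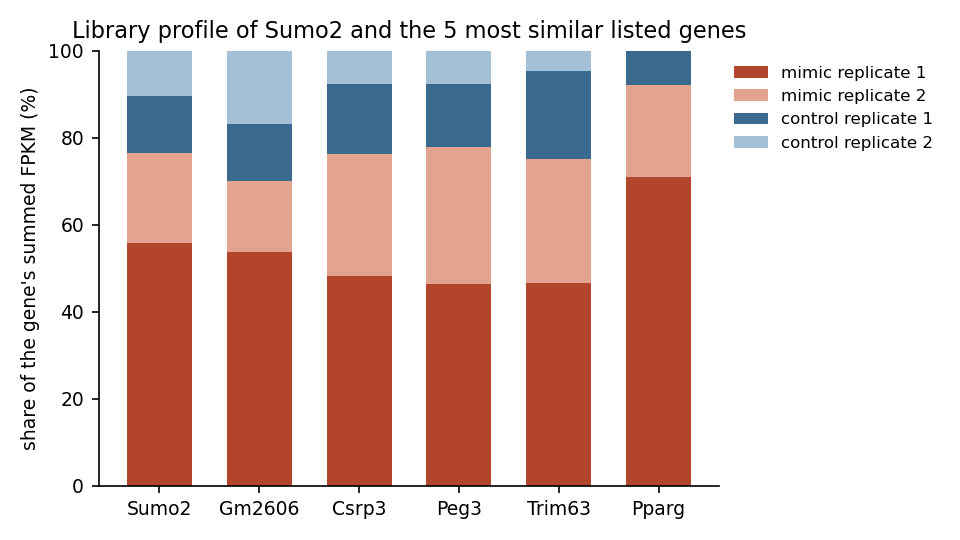
Share of each gene's summed FPKM found in each library, in percent, for Sumo2 and the 5 listed genes with the most similar profiles, with mimic libraries in reds and control libraries in blues. Mimic replicate 1 holds 55.9% of the Sumo2 total.

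Of the 35 genes of a SUMO pathway list, Sumo2 was the only one in the table. Among the others on the list were Sumo3, the activating enzyme (Sae1, Uba2), the Pias ligases, the SENP proteases and SUMO-targeted ubiquitin ligases such as Rnf4. Their values were not analysed here. None of 18 genes for ubiquitin and its other relatives was listed either. Of 37 ubiquitin ligases and their substrate adaptors 2 were listed, Trim63 and Asb18, and both were higher in both mimic libraries than in both control libraries, as were 54.2% of all listed genes. Trim63, which encodes the muscle ubiquitin ligase MuRF1, had 1.06 and 0.654 FPKM with the mimic, against 0.462 and 0.106 FPKM in the control. Its mimic replicates differed less than those of Sumo2, and its control replicates differed more. Asb18, an ankyrin repeat protein with a SOCS box, had 14 and 21 reads in the mimic libraries and 0 and 2 reads in the control libraries. The lists were drawn up with earlier results of these data known, and the genes outside the table give no background for these counts.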

How the data were processed

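Libraries were grouped by the sample titles, and the deposited columns were mapped by group name and replicate number. Per the study's methods and the submitters' processing notes, the authors aligned paired-end reads with HISAT2 and compared groups with DESeq2. No source used here gives the read counter, the genome build or any version. The table held 48 genes selected by the authors, with a log2 fold change, a p-value and an adjusted p-value, which were not used. It also held deposited group means, a signal of normalised counts, and 1 value per library, read as FPKM computed by the authors.

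Reads were recovered from the deposited FPKM as FPKM × union exon length (GENCODE M21, GRCm38) × library total, with the total searched for. All 4 products were whole within 0.01 reads for 44 of 46 genes with a length, Sumo2 included. For the 4 other genes reads came from the group means and lay within 0.00884 of whole numbers. Size factors fitted to the group means reproduced them within 0.0054. On simulated data for 46 genes, 100% of reads and all 4 totals came back. In Sumo2, 1 read was worth 0.0147 to 0.0193 FPKM.

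No test was run on the contrast, as the design foresaw. Counting intervals were exact Poisson and, for ratios, Clopper-Pearson limits at 95%. Matches were found with blastn 2.17.0 against GENCODE M21 transcripts, and repeated stretches by exact search on both strands. Other tools were Python 3.11.15, numpy 2.4.6, pandas 2.3.3 and scipy 1.17.1. Named genes were Sumo2, the 5 next highest by mean FPKM, the 5 most similar profiles (at least 20 reads), up to 5 with a larger mimic replicate difference, members of 3 gene lists and listed genes sharing sequence with Sumo2. Members and lists were chosen with earlier results of these data known. Alternatives were each library left out, normalised counts, a pseudocount of 1 FPKM, geometric means and other read minimums. The mature sequence of miR-712-3p and genomic sequence were not used here. Some genes of the SUMO pathway are not reported here.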

Additional observations from a re-analysis of the deposited data

How the results depend on the processing

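Without each library in turn, the ratio of Sumo2 group means ranged between 1.76 and 4.77, the values with mimic replicate 1 and with mimic replicate 2 left out, against 3.26 with all libraries. It was 3.28 with normalised counts, 3.09 with a pseudocount of 1 FPKM and 2.92 with geometric means. Sumo2 remained first by level under all 6 alternatives tried. As it was first in each library, leaving out a library or taking the median over libraries could not change this. Only normalised counts, not scaled to length, could have given another rank. With at least 100 reads in the mimic group, 2 genes (in place of 5) had a larger mimic replicate difference than Sumo2, since fewer genes were compared, and 7 had one with no minimum. The same 5 genes had the most similar profiles with normalised counts and with no minimum of reads. Normalised counts come from the same reads, and their size factors run close to the library totals. With them, the shares and ratios of a gene therefore had to come out nearly the same, which is no independent check. By transcript length, an alternative chosen after seeing the data, the mimic mean was 63.6 FPKM in place of 38.5 FPKM. No paired analysis was possible because no source ties libraries of the same replicate number together and no test was run. Between libraries of the same number, mimic over control, the ratios were 4.26 for number 1 and 2.00 for number 2. Depth limits the genes set beside Sumo2 more than Sumo2 itself, and 2 libraries a group limit every ratio.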
